A study of Homo sapiens with 3 samples.

Results

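Transcripts of 10 genes that break down heme, make it, and store, import or export iron were followed in SK-N-BE(2) cells given arsenic trioxide (ATO), an arsenic compound used as a drug. The genes were chosen by name, with earlier results of these data known, and each of the 10 was found once among the 34520 rows of the FPKM table. All 10 averaged 1 FPKM or more across the libraries, as did 12433 rows in all, which are called considered here. FPKM is the number of fragments per kilobase of transcript, scaled to 1000000 counted, which adjusts for transcript length and depth. The sum of FPKM differs between libraries, so comparisons between libraries depend on the scaling used. SK-N-BE(2) is an established human neuroblastoma line with amplified MYCN, the gene of the transcription factor N-Myc, and by its title the study concerns ATO as a block to N-Myc's contact with DNA. The 3 libraries were of control cells, cells with ATO at 2 µM and cells with ATO at 4 µM, each at 12 h by the table's headers. Whether the control cells received a vehicle is not given in the sources used here. Each condition was 1 library, so no value has a replicate check and no test between conditions could be made. A difference between conditions cannot be told apart from one between single cultures. Depth could only be estimated, from the spacing of low values, as 1.03 and 0.991 times the control for 2 µM and 4 µM, and the spacing accounted for at most 17.5% of those values. The adrenergic neuroblastoma markers, 8 of 8, had at least 1 FPKM in every library, and their levels summed to 1197 FPKM in the control cells, 659 FPKM at 2 µM and 317 FPKM at 4 µM. Most of each sum was MYCN, at 832, 412 and 197 FPKM, and each of the other markers was lower with ATO as well.

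Heme oxygenases open the heme ring and release iron, carbon monoxide and biliverdin, which biliverdin reductases turn into bilirubin. The iron is held in ferritin, a shell of heavy and light chains, or leaves the cell through ferroportin. Iron bound to transferrin enters through the transferrin receptor. When iron is scarce, the iron regulatory proteins bind hairpins called iron-responsive elements, which blocks translation when the element lies in a 5′ UTR and stabilises the transferrin receptor mRNA through elements in its 3′ UTR. HMOX1 is the inducible heme oxygenase, repressed by the heme-binding factor BACH1 and activated by NRF2, which drives the response to oxidants, and the ferritin genes are known NRF2 targets as well.

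The hairpin pattern was searched in GENCODE release 29 transcripts, because it marks the members whose mRNA the iron regulatory proteins are known to bind. The pattern was a C, 5 bases, the loop CAGTGN with a last base other than G, and 5 bases that pair with the first 5, G with T allowed. At least 1 transcript of 214 of 19669 protein-coding genes held it, 1.09%, and 4 of the 10 members did, namely FTH1, FTL, SLC40A1 and TFRC. The elements are shown 5′ to 3′ on the transcript strand with T for U and the loop in capitals. They lie in the 5′ UTR of FTH1 (chromosome 11, bases 59 to 87 of a transcript of 1229), FTL (chromosome 19, bases 35 to 63 of a transcript of 878) and SLC40A1 (chromosome 2, bases 199 to 227 of a transcript of 3442), and 4 lie in the 3′ UTR of TFRC (chromosome 3, from base 3388 to base 3932 of a transcript of 5111).
FTH1: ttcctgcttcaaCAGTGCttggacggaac
FTL: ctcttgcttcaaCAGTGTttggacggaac
SLC40A1: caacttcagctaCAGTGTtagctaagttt
TFRC element 1: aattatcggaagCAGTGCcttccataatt
TFRC element 2: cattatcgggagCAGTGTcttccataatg
TFRC element 3: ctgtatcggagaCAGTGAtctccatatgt
TFRC element 4: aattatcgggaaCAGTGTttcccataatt
These 4 genes did not share a direction in the libraries. FTH1 and FTL were higher with ATO, TFRC was lower, and SLC40A1 differed less, at 0.777 times its control level at 4 µM.

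HMOX1, on chromosome 22, had 9.17 FPKM in the control, 808 FPKM at 2 µM and 1770 FPKM at 4 µM. It was thus 88.1 times its control level at 2 µM and 193 times at 4 µM. By level it was the 4632nd of the 12433 rows in the control, the 29th at 2 µM and the 15th at 4 µM. Its log2 fold of FPKM + 1 was 6.31 at 2 µM and 7.44 at 4 µM, the largest of all 12433 rows at either dose. With a pseudocount of 0.1 in place of 1 it ranked 2 at each dose, below a read-through row (PEDS1-UBE2V1) at 2 µM and below MT1G at 4 µM. HMOX2, on chromosome 16, encodes the constitutive heme oxygenase and had 9.67, 12.4 and 9.43 FPKM in the same order. The paralogs therefore started level, at a ratio of HMOX1 to HMOX2 of 0.948, and stood at 65.1 at 2 µM and 188 at 4 µM. A ratio within a library does not depend on how libraries are scaled to each other. HMOX2 had log2 folds of 0.33 and -0.03, and the latter was 0.11 with median-of-ratios scaling, 0.01 with upper-quartile scaling and 0.02 as TPM.

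**Figure D1:**
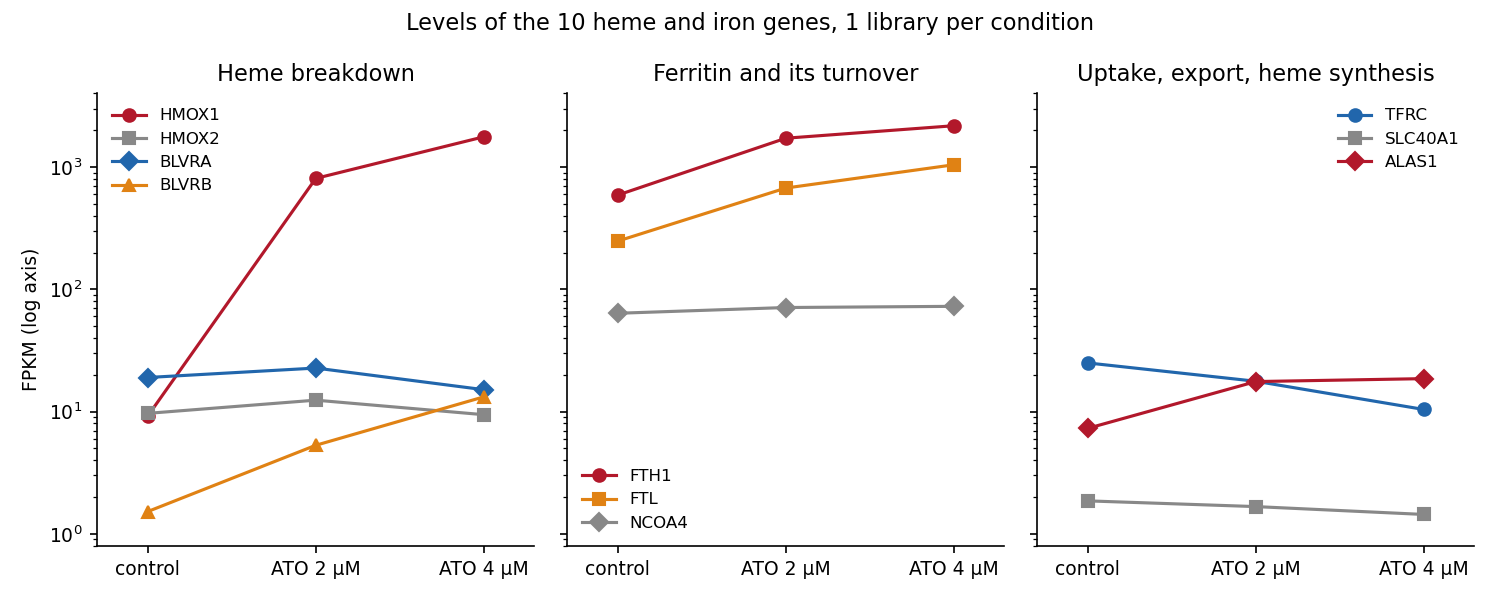
FPKM of the 10 genes on a log axis in the control, 2 µM and 4 µM libraries, each point 1 library and each line 1 gene, in 3 panels by role. HMOX1 goes from 9.17 to 1770 FPKM while HMOX2 ends at 9.43 FPKM, both ferritin chains lie at 248 FPKM or more throughout, and TFRC and ALAS1 meet at 2 µM.

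The biliverdin reductases also parted. BLVRB, on chromosome 19, encodes the reductase that acts on several biliverdin isomers and on flavins, and had 1.52 FPKM in the control, 5.30 FPKM at 2 µM and 13.2 FPKM at 4 µM. Each dose was above the last, and at 4 µM the level was 8.73 times the control (log2 fold 2.50). BLVRA, on chromosome 7, encodes the main reductase of the biliverdin that heme oxygenase makes, and had 19.0, 22.7 and 15.1 FPKM. Its log2 folds were 0.25 at 2 µM and -0.31 at 4 µM. The ratio of BLVRB to BLVRA was 0.0800 without ATO, then 0.234 at 2 µM and 0.877 at 4 µM, so the genes came from far apart to nearly level. BLVRB was the lowest of the 10 members in the control. By a transcript length of 873 bases, its control value would rest on about 47 counted units, and its 95% Poisson interval would run from 1.11 to 2.01 FPKM, against 12.0 to 14.6 FPKM at 4 µM. These intervals cover counting error only and take a counted unit as 1 independent read. They also rest on the estimated depth, whose spacing accounted for at most 17.5% of low values, so the units are approximate.

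Both ferritin chains were higher with ATO from a level that was already high. FTH1, the heavy chain with the ferroxidase site, had 590 FPKM in the control, 1723 FPKM at 2 µM and 2180 FPKM at 4 µM. FTL, the light chain, had 248, 674 and 1045 FPKM. At 4 µM FTH1 was 3.70 times and FTL 4.22 times the control, log2 folds of 1.88 and 2.07. FTH1 was the 35th row by level in the control and the 10th at 4 µM, and FTL went from the 61st to the 21st. The chains kept a like proportion, with 0.421 FTL per FTH1 without ATO, 0.391 at 2 µM and 0.480 at 4 µM. HMOX1, FTH1 and FTL together made up 0.330% of the summed FPKM of the control library, 1.22% at 2 µM and 2.02% at 4 µM. NCOA4, on chromosome 10, encodes the receptor that carries ferritin to the lysosome for breakdown, and it had 63.7, 71.0 and 72.6 FPKM, log2 folds of 0.15 and 0.19.

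Ferritin genes have many processed pseudogenes, whose reads counting may not separate from those of the genes. The 16 FTH1 pseudogene rows summed to 11.7, 34.3 and 42.4 FPKM, which was 1.98%, 1.99% and 1.95% of the FTH1 level in the control, 2 µM and 4 µM libraries. The rows thus stood in the same proportion to FTH1 in each library. FTH1P2 was the highest of them, at 6.34, 20.2 and 27.9 FPKM, followed by FTH1P8 at 1.57, 5.50 and 4.81 FPKM. The 3 FTL pseudogene rows summed to at most 2.39 FPKM in any library, with FTLP3 at 0.283, 1.11 and 1.76 FPKM and FTLP12 at 0.740, 0.312 and 0.559 FPKM. Adding the pseudogene rows to the genes gave the same log2 folds, 1.88 for FTH1 and 2.07 for FTL at 4 µM. The rows were too small a part of either gene to move its fold, so the sums do not show whether counting separated the reads.

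Among the genes of iron traffic, TFRC was lower and SLC40A1 differed less from its control level. TFRC encodes the transferrin receptor and had 25.0 FPKM in the control, 17.7 FPKM at 2 µM and 10.4 FPKM at 4 µM. It was lower at each dose, and at 4 µM it was at 0.414 times the control, a log2 fold of -1.19. The control level of FTH1 was 23.6 times that of TFRC, and the ratio was 97.5 at 2 µM and 210 at 4 µM. SLC40A1 encodes ferroportin, the iron exporter, and had 1.86, 1.67 and 1.44 FPKM, log2 folds of -0.10 and -0.23. By a transcript length of 3442 bases, its 95% Poisson interval would be 1.62 to 2.11 FPKM in the control. At 4 µM the interval would be 1.24 to 1.67 FPKM. These intervals cover counting error only and rest on the same estimated depth, and their small overlap is no test of a difference. Other iron export and hepcidin axis genes were scarce: of the 8 listed, 6 lay below a mean of 1 FPKM, among them HAMP, CP and HEPH, the genes of hepcidin and of the ferroxidases ceruloplasmin and hephaestin, and BMP6, a ligand that induces hepcidin in liver, had 10.4, 9.24 and 7.63 FPKM.

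Promoter windows of 8 of the 10 members were matched in the RefSeq table (GRCh38.p14), and those of HMOX1 and FTH1 were not analysed here. HMOX2 and NCOA4 had 2 windows each, and the shares of all windows given below are per window, not per gene. For the 8, the 250 bases before each start were searched on both strands. The E-box CACGTG, the classical site of MYC family factors, was in 6.34% of the 35116 windows. Among the members it was in 1 of the 2 HMOX2 windows, 28 bases before the start. The core of the antioxidant response element, TGACNNNGC, was in 10.9% of windows and in none of the 8 members'. The TATA box TATAAA was in 10.7% of windows and in those of TFRC, 33 bases before the start, and ALAS1, 234 bases before the start and on the opposite strand. This HMOX2 window holds the E-box beside a transcript that differed little, and the TFRC window is that of the member that was lower. Both are shown 5′ to 3′ with the matched motif in capitals, HMOX2 at chr16:4474486-4474735 on the plus strand and TFRC at chr3:196082091-196082340 on the minus strand.
HMOX2: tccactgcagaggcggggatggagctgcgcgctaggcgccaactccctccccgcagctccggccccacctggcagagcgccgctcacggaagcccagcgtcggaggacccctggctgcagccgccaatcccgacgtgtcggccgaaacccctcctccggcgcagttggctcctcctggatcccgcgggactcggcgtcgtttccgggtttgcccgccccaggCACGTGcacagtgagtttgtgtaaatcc
TFRC: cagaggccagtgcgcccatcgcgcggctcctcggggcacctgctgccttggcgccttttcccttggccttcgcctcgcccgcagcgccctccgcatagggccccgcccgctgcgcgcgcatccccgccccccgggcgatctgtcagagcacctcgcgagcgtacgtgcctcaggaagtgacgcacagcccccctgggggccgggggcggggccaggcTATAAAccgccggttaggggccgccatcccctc
No match says only that these letters are absent from these windows, and binding was not measured here.

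ALAS1, on chromosome 3, encodes the rate-limiting first enzyme of heme synthesis, which heme itself is known to repress. It had 7.29 FPKM in the control, 17.6 FPKM at 2 µM and 18.6 FPKM at 4 µM. Most of the difference was present at the lower dose, since the log2 fold of 1.17 at 2 µM was 93.9% of the 1.24 at 4 µM. With median-of-ratios scaling these folds were 1.16 and 1.38. The later enzymes described here did not share one direction. UROS, which closes the ring, had 4.33, 3.02 and 1.79 FPKM, a log2 fold of -0.94 at 4 µM. PPOX, the enzyme before the last, had 2.92, 1.62 and 0.975 FPKM, a log2 fold of -0.99. Both lay just inside the size rule, an absolute log2 fold of at least 1. Both were past it with a pseudocount of 0.1, at -1.23 for UROS and -1.49 for PPOX, and as TPM, at -1.12 and -1.32. They stayed inside it with median-of-ratios scaling, at -0.83 for UROS and -0.90 for PPOX, and with upper-quartile scaling, at -0.91 and -0.97. With a pseudocount of 5 they were at -0.46 and -0.41. As a plain ratio UROS was at 0.413 times its control level, next to 0.414 for TFRC, and PPOX at 0.334 times. FECH, which inserts the iron and was named after its values were seen, had a log2 fold of 0.39. Of the 11 considered genes reported for heme synthesis and mitochondrial heme transport, ALAS1 was the one past the size rule at 4 µM, and the median log2 fold was -0.23 against -0.13 for all considered rows. The share of all considered rows past the rule was 9.46%. With a filter of 10 FPKM that median was 0.42, and ALAS1 and ABCB6 reached that filter through their values with ATO. At 2 µM ALAS1 was again the one past the rule, where 2.06% of all considered rows were. The median was then 0.05, against 0.01.

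**Figure D2:**
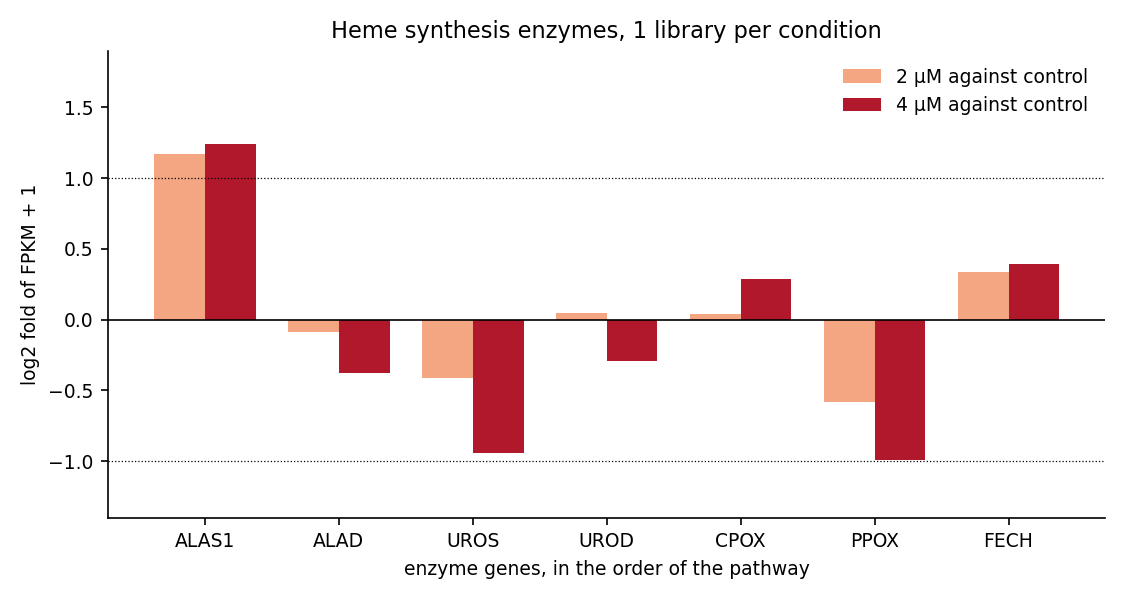
Log2 folds of FPKM + 1 for 7 enzymes of heme synthesis in pathway order, with bars for 2 µM and 4 µM against control, each from 1 library per condition, and dotted lines at the size rule. ALAS1 stands above 1 at both doses, and UROS and PPOX come close to -1 at 4 µM without passing it.

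By the size rule 5 of the 10 members were higher at 2 µM and 0 were lower, where 2.06% of all considered rows were past the rule, 1.16% higher and 0.901% lower. The 5 were HMOX1, BLVRB, FTH1, FTL and ALAS1. At 4 µM the same 5 were higher and TFRC was lower, 6 of 10 members, where 9.46% of all considered rows were past it, 4.19% higher and 5.27% lower. The median log2 fold of the members was 0.75 at 2 µM and 0.71 at 4 µM, against 0.01 and -0.13 over all considered rows. Without HMOX1 the medians were 0.33 and 0.19. At 4 µM higher rows made up 44.3% of those past the rule as deposited and 60.1% with median-of-ratios scaling, which took the median of all rows to -0.00. The members past the rule at 4 µM were 5 higher and 1 lower under each of 3 scalings tried, median-of-ratios, upper-quartile and TPM. The comparisons of each dose with control share the control library, so agreement between them is not independent.

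**Figure D3:**
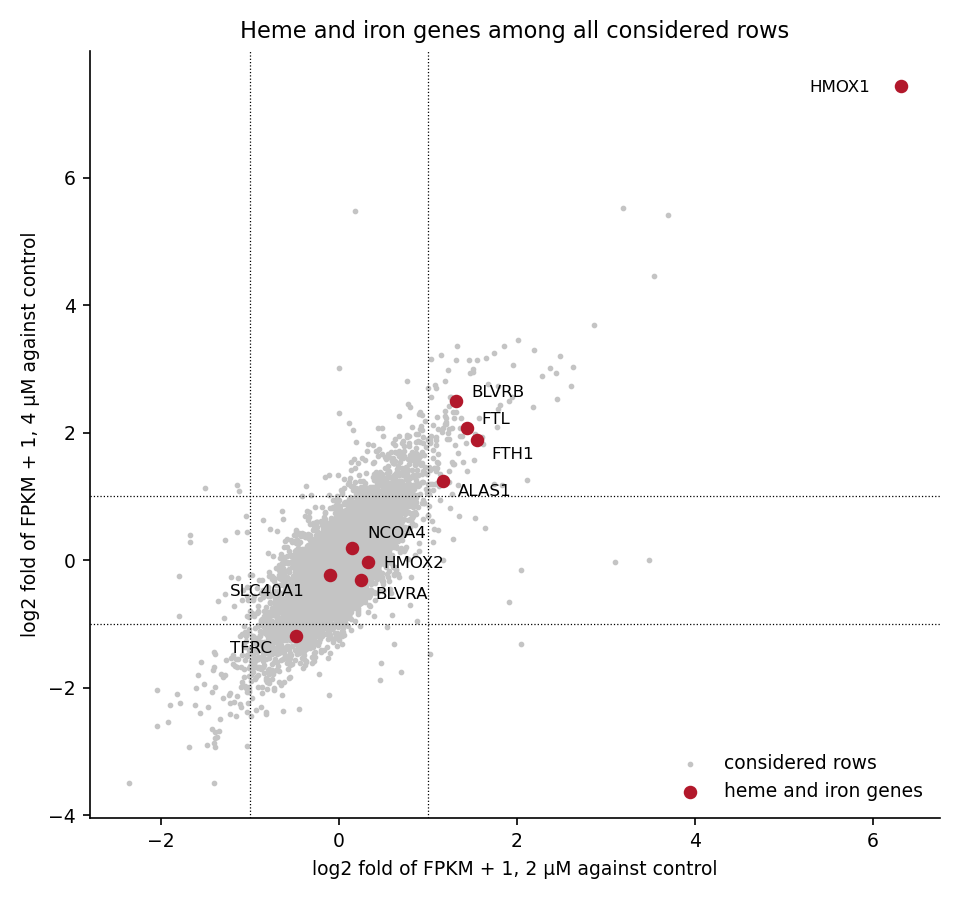
Log2 folds of FPKM + 1 at 4 µM (vertical) against those at 2 µM (horizontal), both against the same control library, for the considered rows in grey and the 10 members in red, with dotted lines at the size rule. HMOX1 lies apart at 6.31 and 7.44, BLVRB, FTL, FTH1 and ALAS1 lie past 1 on both axes, and TFRC is past -1 at 4 µM.

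From 2 µM to 4 µM the members took different courses. HMOX1 and BLVRB went past the size rule again, with log2 folds of 1.13 and 1.18, 2 of 10 members where 2.48% of all considered rows were past it, 1.14% higher and 1.34% lower. FTL had 0.63 and FTH1 0.34, and ALAS1 had 0.08, so the members that were higher differed in how much of their fold was reached at 2 µM. That share was 93.9% for ALAS1, 84.8% for HMOX1, 82.0% for FTH1, 69.5% for FTL and 53.0% for BLVRB on the log2 scale. The sizes of the shares rest on the deposited scaling, while their order was the same with median-of-ratios scaling, upper-quartile scaling and TPM. With median-of-ratios scaling the log2 folds between the doses were 0.23 for ALAS1, 0.50 for FTH1 and 0.79 for FTL. TFRC had -0.72 between the doses and had reached 40.1% of its log2 fold at 2 µM. The median of all considered rows between the doses was -0.12, and higher rows made up 46.1% of those past the rule, a share of 71.4% after median-of-ratios scaling and of 60.4% after upper-quartile scaling. BLVRA had -0.56, HMOX2 -0.36, SLC40A1 -0.13 and NCOA4 0.03.

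The order of levels within a library also shifted. In the control FTH1, FTL, NCOA4 and TFRC were the highest members and SLC40A1 and BLVRB the lowest, and HMOX2, HMOX1 and ALAS1 lay between 7.29 and 9.67 FPKM. At 4 µM FTH1 was still first, HMOX1 was next and FTL followed, ahead of NCOA4 by 14.4 times. SLC40A1 was then the lowest, at 1.44 FPKM. With 1 library per condition the spread of a level is not known, so neighbours in this order cannot be called different.

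Beyond the members, 54 considered genes of heme and iron pathways were listed, and 0 of them were past the size rule at 2 µM, where 2.06% of all considered rows were. At 4 µM 3 were, 5.56% of them against 9.46% of all considered rows. HSPA9, the mitochondrial HSP70 that also serves iron-sulfur cluster assembly, had 47.9, 65.0 and 104 FPKM (log2 fold 1.11). ABCC2, an exporter of conjugated bilirubin in liver, had 0.556, 1.33 and 2.18 FPKM (1.03) and reached the mean of 1 FPKM through its values with ATO. STEAP3 was lower, the endosomal reductase that prepares transferrin iron for transport, at 3.80, 1.98 and 1.29 FPKM (-1.07). With median-of-ratios scaling STEAP3 was at -0.97, inside the rule.

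By list, iron uptake and reduction had 0 higher and 2 lower of 7 considered genes at 4 µM, TFRC and STEAP3, with a median of -0.31, where 5.27% of all considered rows were lower and their median was -0.13. In heme transport and binding 0 of 6 considered genes were past the rule in either direction, where 9.46% of all considered rows were. SLC48A1, which carries heme out of endosomes and lysosomes, had 0.76 and FLVCR1, a heme exporter, -0.74. None of the 3 iron sensing genes was past it, with ACO1, the iron regulatory protein that can also be an aconitase, at -0.23 and IREB2, the other iron regulatory protein, at -0.16. Among iron storage genes the ferritins were the ones past it, while the iron chaperone genes PCBP1 and PCBP2 had 0.12 and -0.33. Mitochondrial iron import and iron-sulfur cluster assembly had 1 of 23 past it, HSPA9, against the same 9.46% of all considered rows. The median of that list was -0.11, or 0.02 with median-of-ratios scaling. In bilirubin and biliverdin handling HMOX1 and BLVRB were higher, where 4.19% of all considered rows were, and so was ABCC2, which entered the list's 6 considered genes through its values with ATO.

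**Figure D4:**
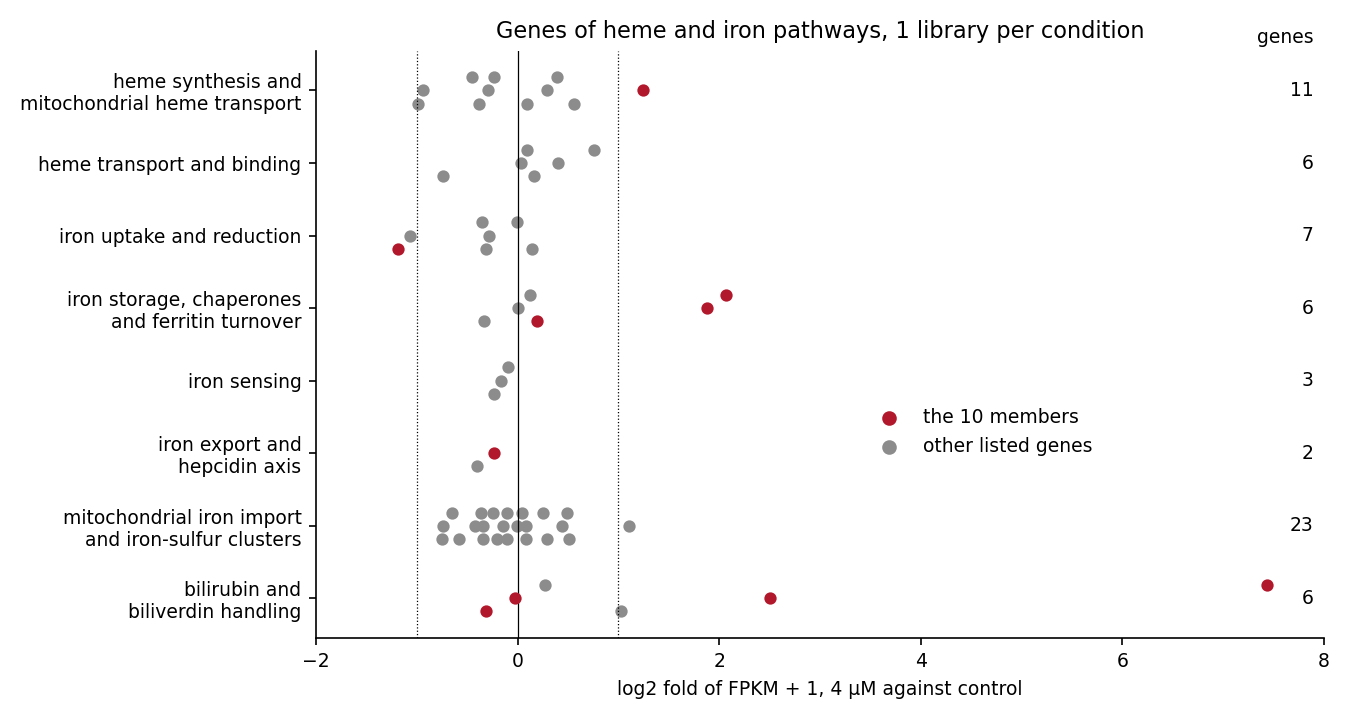
Log2 folds of FPKM + 1 at 4 µM against control for the considered genes of 8 heme and iron lists, 1 point per gene, the 10 members in red and other genes in grey, with the number of genes at the right and dotted lines at the size rule. The points past the lines are mostly members, and HSPA9, ABCC2 and STEAP3 are the grey ones.

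The genes whose pair of log2 folds lay nearest to that of HMOX1, over 3 libraries, were MT1G, GDF15, MT2A, MT1E and MT1X, 4 metallothionein genes and a stress-induced cytokine. The distances were 3.32, 3.67, 4.07, 5.10 and 5.85 on the log2 scale, and they depended on the pseudocount. With 0.1 in place of 1, MT1G had log2 folds of 6.27 and 8.06 beside 6.45 and 7.58 for HMOX1, a distance of 0.51. With 5, MT2A was the nearest, at 4.40, and MT1E and MT1X were at places 27 and 36. HMOX1 had the largest fold at each dose, so its nearest patterns had to be those of other genes with large folds. MT1G, the nearest with a pseudocount of 1, had 0.0665, 12.8 and 44.4 FPKM. In the control MT1E had 0.155 FPKM and MT1X 0.543 FPKM. These 3 MT1 genes reached the mean of 1 FPKM through their values with ATO. Sequences of MT1 genes are highly alike, so their separate values are uncertain.

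Markers of macrophages, red cell precursors and hepatocytes, cell types known for much heme or iron handling, were read in the same libraries. Of 9 macrophage markers, 0 had at least 1 FPKM in the control and 1 did at each dose. The exception was CD68, a lysosomal glycoprotein, at 0.534, 3.69 and 4.87 FPKM. PTPRC, the pan-leukocyte marker, was at most 0.0975 FPKM, and the summed list was 1.66 FPKM in the control, 6.06 FPKM at 2 µM and 5.66 FPKM at 4 µM. The 4 erythroid markers in the table, of 10 listed, summed to 0.437, 0.520 and 1.16 FPKM. HBB had 0.0858, 0.229 and 0.549 FPKM, HBA1 0.0627, 0.148 and 0.168 FPKM, and HBA2 0.246, 0.142 and 0.443 FPKM. GATA1 had 0.0425 FPKM in the control and was listed at 0 in both ATO libraries. The 5 hepatocyte markers in the table, of 6 listed, summed to at most 0.406 FPKM. In bulk RNA a change in the cells present and a change in RNA per cell cannot be told apart, and the part of CD68 and of the lower neuroblastoma markers in these results was not tested.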

How the data were processed

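Paired-end TruSeq libraries were prepared from 1.3 µg of total RNA, per the labels' protocols. The authors deposited FPKM per gene for 3 libraries, per the file headers. The aligner, counter and strand setting were not given in the sources used here. Builds named in the submitters' processing notes are GRCm38 and mm10, which are of mouse, whereas the rows carry human symbols, 25196 of them with an HGNC entry. Depth was inferred from low FPKM values times transcript length in GENCODE release 29. The commonest step gave about 35.7, 36.8 and 35.4 times 1000000 counted units for control, 2 µM and 4 µM, but within a tolerance of 0.01 at most 17.5% of low values came out whole, so read counts could not be recovered.

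Considered rows averaged 1 FPKM or more, and log2 folds were of FPKM + 1, which understates differences of low genes. The size rule was an absolute log2 fold of at least 1. With 1 library per group no p-value or SD was computed. The members, lists and motifs were chosen with earlier results of these data known, and 1 listed gene is not reported here. Always named were the 10 members, listed genes past the rule in any comparison or else up to 2 with the largest fold at 4 µM, the 5 nearest patterns to HMOX1 and the 2 highest pseudogene rows per ferritin. Alternatives were pseudocounts of 0.1 and 5, no filter, an average of 10 FPKM or more, and 3 scalings (median-of-ratios, upper-quartile and TPM). The same 1 was added to TPM, whose values are larger than FPKM here, so that setting also acts as a smaller pseudocount. Promoter sequences are from RefSeq. Python 3.11.15, numpy 2.4.6, pandas 2.3.3, scipy 1.17.1 and matplotlib 3.10.9 were used.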

Additional observations from a re-analysis of the deposited data

How the results depend on the processing

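Of 240 recomputed log2 folds of the members, 232 kept their direction and their side of the size rule. Part of that agreement was fixed in advance, because changing the filter on low values leaves a gene's own fold as it was. With a pseudocount of 5, 5 came to lie inside it: BLVRB (0.66) and ALAS1 (0.88) at 2 µM, ALAS1 (0.94) and TFRC (-0.97) at 4 µM, and BLVRB between the doses (0.82). The other 3 were HMOX2 at 4 µM, whose sign turned under each scaling. With that pseudocount 3 members were past the rule at 2 µM and 1 between the doses, and under an average of 10 FPKM or more as the filter 1 was between the doses, because BLVRB was then not considered. No member past the rule was reversed in any setting tried, the plain log2 ratio of FPKM included, which was added after seeing the data. A filter or a change of pseudocount cannot turn a sign. Size factors of the median-of-ratios and upper-quartile scalings lay between 0.932 and 1.04, and TPM divides by sums of FPKM that were alike. The pseudogene rows were at most 1.99% of FTH1 and 0.412% of FTL. None of these could turn a fold of at least 1, so the absence of reversals was fixed in advance. The heme synthesis median at 4 µM was 0.42, and between the doses 0.11 against -0.29, under the filter of 10 FPKM.

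With a pseudocount of 0.1 the other listed genes past the rule, of 54, were 1 at 2 µM, 6 at 4 µM and 1 between the doses. At 4 µM they were 6 as TPM, 1 with a pseudocount of 5 and 1 at a mean of at least 10 FPKM. All considered rows were 12433, and fewer at a mean of at least 10 FPKM. Among them the counts at 2 µM were 506 (pseudocount 0.1), 61 (pseudocount 5), 103 (mean of at least 10 FPKM) and 437 (TPM), against 256. At 4 µM they were 1949, 390, 474 and 1736 in the same order of settings, against 1176. Between the doses they were 735, 77, 134 and 573, against 308. Of the 5 patterns nearest to HMOX1, 3 were kept with a pseudocount of 0.1 and 3 with 5. No paired analysis was possible because each condition had 1 library, and for the same reason no library could be left out.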
